A study of Mus musculus with 8 samples.

Results

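The promoters described here carried a peak of the transcription factor NFIB (NfiB in the labels and figures) in both NFIB libraries and no overlapping peak of the related factors NFIA and NFIX. Peaks of 6 chromatin immunoprecipitation sequencing (ChIP-seq) libraries were merged into 46070 regions wherever they overlapped by at least 1 bp, and a region was kept when its midpoint lay within 1 kb of the transcription start site (TSS) of a protein-coding gene. This gave 835 regions with 806 different nearest genes. They made up 41.9% of the 1991 promoter regions with both NFIB peaks (95% Wilson interval 39.8 to 44.1%) and 18.6% of the 4484 regions bound by NFIB alone anywhere in the genome (17.5 to 19.8%). The regions were selected on the presence and absence of called peaks and on their distance to a TSS, so their peak strengths and distances are given as a description with no test, and the intervals cover counting error only.

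The study profiled granule neuron progenitors, the dividing precursors of cerebellar granule neurons, which were dissociated from mouse cerebellum at postnatal day 7. NFIB, NFIA and NFIX each had a library of the outbred strain CD1 and a library, called Mixed here, whose mixed strain background the labels liken to CD1. The 2 input libraries were not analysed here. The labels name no treatment or mutation and do not state whether different animals were used for the libraries. The source of the NFIB antibody differs between the sample labels (Novus Biologicals) and the series description (Sigma). Peak lists hold no expression values, so the labelled cell type could not be checked against marker genes. In such bulk lists, binding in fewer cells and weaker binding in all cells cannot be told apart.

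The nuclear factor I (NFI) proteins bind DNA as dimers, and each subunit reads the bases TTGGC in a palindrome in which the other arm, GCCAA, follows after a short spacer. In the developing cerebellum they are known for roles in the maturation of granule neurons. Promoters of broadly expressed genes in mammals often lie in CpG islands, stretches rich in the dinucleotide CG that carry GC boxes, the sites read by Sp and Klf zinc finger proteins.

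Sequences upstream of the start sites are shown for examples of these promoters and of promoters bound in every library. In the lines below, which are RefSeq promoter sequences of the build GRCm38.p6 given 5′ to 3′ on the strand of the gene, capitals mark the NFI arm (TTGGC or GCCAA) and the GC box (GGGCGG or CCGCCC). Lurap1l, Enpep, Arhgap32, Rph3al, Nucks1, Srpk2 and Urm1 are the 7 promoters with a RefSeq sequence among the 25 bound by NFIB alone with the highest fold enrichment. Cdkn1b, Mycn, Rps27l and Eif2b2 were bound by NFIB alone too and were chosen after their values were seen, to show a cell cycle, a transcription factor and 2 translation genes. Gstm7 and Oasl1, promoters with peaks in all 6 libraries, were also chosen after their values were seen and hold the full palindrome.
Lurap1l (chr4:80910436-80910645, plus strand): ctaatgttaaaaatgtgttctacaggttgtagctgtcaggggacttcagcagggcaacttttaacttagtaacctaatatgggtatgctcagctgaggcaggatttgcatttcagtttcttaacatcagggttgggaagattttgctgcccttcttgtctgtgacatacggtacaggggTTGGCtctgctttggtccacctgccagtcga
Enpep (chr3:129332750-129332999, minus strand): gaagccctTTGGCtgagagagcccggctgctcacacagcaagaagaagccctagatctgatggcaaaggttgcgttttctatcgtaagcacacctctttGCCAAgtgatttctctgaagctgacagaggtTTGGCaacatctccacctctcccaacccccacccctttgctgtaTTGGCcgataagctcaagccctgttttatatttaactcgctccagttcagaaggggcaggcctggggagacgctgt
Arhgap32 (chr9:32224025-32224248, plus strand): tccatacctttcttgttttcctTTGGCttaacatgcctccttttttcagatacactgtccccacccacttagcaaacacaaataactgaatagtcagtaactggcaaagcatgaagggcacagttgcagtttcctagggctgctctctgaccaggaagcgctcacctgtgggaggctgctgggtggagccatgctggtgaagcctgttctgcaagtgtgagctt
Rph3al (chr11:75925892-75926141, minus strand): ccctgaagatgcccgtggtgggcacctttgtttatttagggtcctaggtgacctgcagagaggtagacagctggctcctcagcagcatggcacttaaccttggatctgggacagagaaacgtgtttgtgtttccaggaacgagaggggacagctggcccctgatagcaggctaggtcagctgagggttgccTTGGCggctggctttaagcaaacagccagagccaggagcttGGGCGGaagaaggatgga
Nucks1 (chr1:131910208-131910457, plus strand): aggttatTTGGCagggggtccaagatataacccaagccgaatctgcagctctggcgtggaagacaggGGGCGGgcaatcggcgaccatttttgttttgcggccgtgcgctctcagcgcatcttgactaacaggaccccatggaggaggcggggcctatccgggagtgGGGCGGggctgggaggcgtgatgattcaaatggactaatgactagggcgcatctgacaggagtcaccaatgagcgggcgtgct
Srpk2 (chr5:23616572-23616821, minus strand): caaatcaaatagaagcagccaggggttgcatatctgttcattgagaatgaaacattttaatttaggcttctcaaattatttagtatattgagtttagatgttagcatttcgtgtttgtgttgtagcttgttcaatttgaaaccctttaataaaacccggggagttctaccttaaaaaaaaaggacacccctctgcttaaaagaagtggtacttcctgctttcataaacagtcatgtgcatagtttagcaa
Urm1 (chr2:29827139-29827341, plus strand): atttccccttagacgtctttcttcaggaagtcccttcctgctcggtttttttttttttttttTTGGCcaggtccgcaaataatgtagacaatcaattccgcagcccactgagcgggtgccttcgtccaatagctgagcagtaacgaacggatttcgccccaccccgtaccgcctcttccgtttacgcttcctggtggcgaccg
Cdkn1b (chr6:134920151-134920400, plus strand): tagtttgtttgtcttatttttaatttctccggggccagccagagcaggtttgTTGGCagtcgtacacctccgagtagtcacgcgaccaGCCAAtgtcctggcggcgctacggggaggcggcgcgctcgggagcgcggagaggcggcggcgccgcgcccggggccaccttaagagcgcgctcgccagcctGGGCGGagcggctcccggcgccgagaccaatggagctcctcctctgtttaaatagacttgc
Mycn (chr12:12941915-12942086, minus strand): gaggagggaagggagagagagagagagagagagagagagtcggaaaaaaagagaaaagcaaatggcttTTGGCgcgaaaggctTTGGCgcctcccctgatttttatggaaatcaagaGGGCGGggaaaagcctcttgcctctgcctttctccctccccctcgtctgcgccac
Rps27l (chr9:66945836-66946085, plus strand): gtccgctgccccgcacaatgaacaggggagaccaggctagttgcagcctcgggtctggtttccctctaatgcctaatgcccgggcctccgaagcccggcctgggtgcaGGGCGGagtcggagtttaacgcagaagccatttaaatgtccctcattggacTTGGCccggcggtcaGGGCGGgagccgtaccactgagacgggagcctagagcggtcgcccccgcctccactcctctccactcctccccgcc
Eif2b2 (chr12:85219231-85219480, plus strand): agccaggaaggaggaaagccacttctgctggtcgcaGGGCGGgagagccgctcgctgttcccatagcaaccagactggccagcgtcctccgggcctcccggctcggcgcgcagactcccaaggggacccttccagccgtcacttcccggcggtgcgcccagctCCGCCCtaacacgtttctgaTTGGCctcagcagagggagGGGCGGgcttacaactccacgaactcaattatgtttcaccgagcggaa
Gstm7 (chr3:107931818-107932067, minus strand): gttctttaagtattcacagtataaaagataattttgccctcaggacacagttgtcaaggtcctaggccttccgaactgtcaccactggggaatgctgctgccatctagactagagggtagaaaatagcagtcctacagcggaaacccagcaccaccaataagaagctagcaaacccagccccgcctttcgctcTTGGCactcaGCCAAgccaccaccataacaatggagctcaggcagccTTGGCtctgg
Oasl1 (chr5:114922990-114923203, plus strand): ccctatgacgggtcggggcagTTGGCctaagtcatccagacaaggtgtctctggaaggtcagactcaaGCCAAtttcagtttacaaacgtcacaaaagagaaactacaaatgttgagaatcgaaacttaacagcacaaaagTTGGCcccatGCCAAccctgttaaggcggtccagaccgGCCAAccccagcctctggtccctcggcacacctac
Of the 7 promoters of highest fold, the Srpk2 stretch held neither an NFI arm nor a GC box. Those of Lurap1l, Arhgap32 and Urm1 held a single arm and no GC box. A stretch need not hold the NFIB summit. At Lurap1l the summits lay at 202 in CD1 and -13 in Mixed from the RefSeq start, outside its stretch, which ended at -41. At Arhgap32 they lay at 134 and 119. Its region began at chr9:32224231, so most of its stretch, with the arm at -228, was outside the region. In the Enpep stretch, 4 separate NFI arms stood at positions -242, -151, -120 and -76 from the RefSeq start, which can differ from the GENCODE start site used for the distances given later, and no GC box was found. Cdkn1b had arms at -198 and -162 and a GC box at -61. Eif2b2 had 1 arm at -67 and GC boxes at -214, -87 and -48. The palindrome of Gstm7 had its arms at -57 and -47, and that of Oasl1 at -109 and -99. At Gstm7 the NFIB summits lay at -12 in CD1 and -26 in Mixed, downstream of its palindrome. A further arm of Gstm7, outside the palindrome, starts at -10, beside the CD1 summit. At Oasl1 the summits lay at -93 and -97, at or beside the arm that starts at -99.

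The 835 promoters bound by NFIB alone had modest fold enrichments over a high local background. The authors' fold at the peak summit had a median of 3.10 in NFIB CD1 (quartiles 2.60 and 3.69) and 2.91 in NFIB Mixed (2.52 and 3.45). It was 4.57 in CD1 and 4.32 in Mixed at the 1006 promoters where NFIB was joined by 1 to 3 of the other libraries, and 9.04 and 8.12 at the 150 promoters with peaks in all 6 libraries. Within the whole CD1 list of 36431 peaks the median promoter bound by NFIB alone stood at the 5.50th percentile of fold, and within the Mixed list of 33283 peaks at the 3.92nd percentile. The median −log10 q was 7.06 in CD1 and 6.42 in Mixed, against 41.6 and 33.9 at promoters of all 6 libraries.

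**Figure D1:**
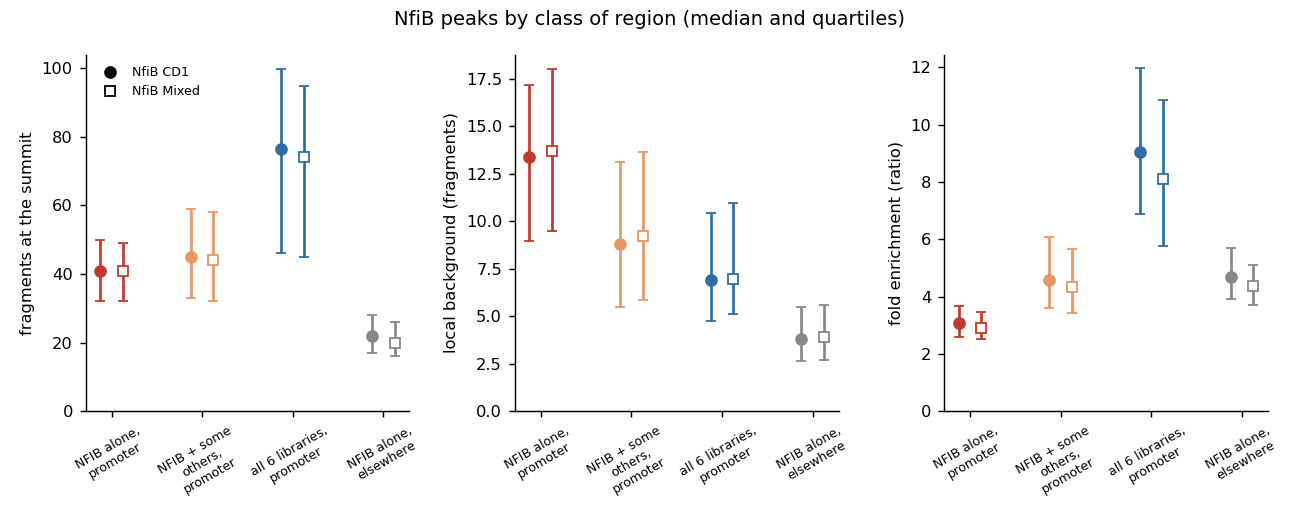
Fragments at the summit, local background in fragments and fold enrichment (ratio) in the 2 NFIB libraries (points are medians, bars quartiles; filled CD1, open Mixed), for promoters bound by NFIB alone, promoters with NFIB and some other libraries, promoters of all 6 libraries and regions of NFIB alone elsewhere. The promoters bound by NFIB alone have the lowest median fold (3.10 in CD1) and the highest median local background (13.4 fragments in CD1).

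Fragments at the summit were fewer than at promoters of all 6 libraries and more than at regions of NFIB alone elsewhere. Fragment counts recovered from the deposited fold and p-values gave a median of 41 fragments at the summit in each NFIB library for the promoters bound by NFIB alone, against 45 in CD1 and 44 in Mixed at promoters shared with some libraries and 76.5 and 74 at promoters of all 6. Regions bound by NFIB alone away from promoters had 22 fragments in CD1 and 20 in Mixed, yet a higher fold of 4.70 and 4.37. The local background, the number of fragments MACS2 took as the local expectation, was 13.4 in CD1 and 13.7 in Mixed at the promoters bound by NFIB alone, against 8.83 and 9.25 at promoters shared with some libraries, 6.92 and 6.96 at promoters of all 6, and 3.82 and 3.90 at the regions of NFIB alone away from promoters. Local background was also higher at promoter peaks than at other peaks within each library, with medians of 11.0 and 3.58 fragments in NFIB CD1, 10.7 and 3.90 in NFIB Mixed, 7.68 and 3.84 in NFIA Mixed, 5.37 and 2.68 in NFIA CD1, 5.12 and 2.51 in NFIX Mixed and 4.20 and 2.42 in NFIX CD1. The part of this background in the absence of NFIA and NFIX peaks was not tested.

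The number of promoters bound by NFIB alone moved with the length of the peak lists. The NFIB lists were the longest, at 36431 and 33283 peaks, while NFIA had 16993 in CD1 and 23541 in Mixed, and NFIX had 7497 in CD1 and 21443 in Mixed. When every list was held to its 7497 peaks of highest fold and regions were formed again, 5 promoters were bound by NFIB alone. Ranking by −log10 q gave 19. Of the 835 promoters 1 ranked that high by fold in CD1 and 0 did in Mixed, so the 5 were not among the 835. Of the 150 promoters of all 6 libraries, 64 ranked that high in both. From lists of unequal length, binding by NFIB alone cannot be told apart from NFIA or NFIX signal that did not enter their shorter lists. Among the 1006 shared promoters, 389 had a single further library, which was NFIA Mixed at 292, NFIA CD1 at 53 and NFIX Mixed at 44. The added NFIA Mixed peak stood at a median 5.23rd percentile of its own list, a level like that of the NFIB peaks at promoters bound by NFIB alone.

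Both NFIB libraries placed the summit close together, though the median gap was the widest of the classes compared. The median gap between the CD1 and the Mixed summit was 40 bp (quartiles 17 and 76) at promoters bound by NFIB alone, and 492 of the 835 (58.9%) had summits within 50 bp of each other. The gap was 30 bp at promoters shared with some libraries (70.7% within 50 bp) and 16 bp at those of all 6, where 81.3% were within 50 bp. At regions of NFIB alone away from promoters it was 37 bp, with 62.0% within 50 bp. The fold was higher in CD1 than in Mixed at 494 of the 835 promoters. Across these 835 regions the folds of CD1 and Mixed had a Spearman correlation of 0.597, a description over regions that share their libraries and genomic background. The correlation was 0.713 over the shared promoters, 0.852 over the 150 promoters of all 6 libraries and 0.462 over regions of NFIB alone away from promoters.

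The promoters bound by NFIB alone were centred on the start site. The summit lay a median of 113 bp from the TSS in CD1 and 115 bp in Mixed, with the sign 21 and 22 bp upstream, against 182 and 179 bp at promoters shared with some libraries and 348 and 350 bp at promoters of all 6. Summits within 100 bp of the TSS were found at 381 promoters bound by NFIB alone in CD1 (45.6%, interval 42.3 to 49.0%) and 373 in Mixed (44.7%), against 32.3% and 33.1% of the shared promoters and 27 and 29 of the 150 of all 6 libraries. By annotation, the CD1 summit fell in a UTR at 257 of the 835 promoters (30.8%), in coding sequence at 50, in an intron at 205 (24.6%) and outside exons and introns at 323. At the promoters of all 6 libraries 20 of the 150 CD1 summits (13.3%) were in a UTR and 75 in an intron.

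**Figure D2:**
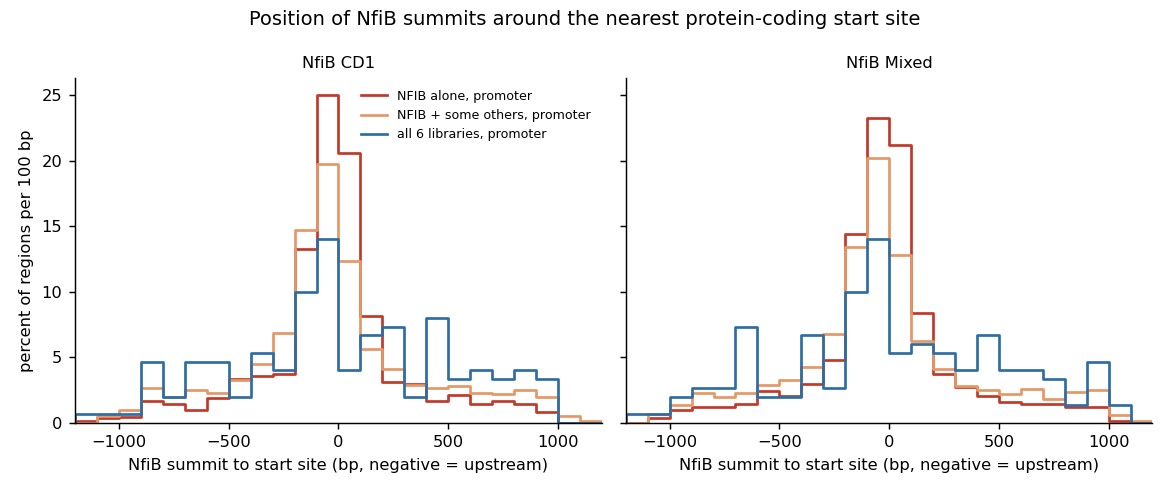
Distribution of NFIB summits around the TSS (distance in bp, upstream negative) as the share of regions in each 100 bp bin, for the 3 promoter classes. Promoters bound by NFIB alone peak at the TSS, with 209 of the 835 CD1 summits in the 100 bp just upstream.

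Some of these promoters served genes on both strands. A protein-coding TSS on each strand within 1 kb of the midpoint was found at 78 of the 835 promoters bound by NFIB alone (9.34%, interval 7.55 to 11.5%), against 6.36% of the shared promoters (5.01 to 8.04%) and 4 of the 150 promoters of all 6 libraries (2.67%, 1.04 to 6.66%). The interval of the promoters bound by NFIB alone overlapped that of the shared promoters and lay above that of the promoters of all 6 libraries. With the start sites of all gene biotypes counted, the share was 25.3% at promoters bound by NFIB alone, against 17.3% at shared promoters and 12.7% at those of all 6. The pairs with the highest NFIB fold were Tmie with Als2cl and Cwc15 with Kdm4d. Lower in this order stood Naa50 with Atp6v1a, a subunit of an N-terminal acetyltransferase complex and one of the vacuolar proton pump. So did Vps52 with Rps18, a membrane trafficking subunit and a small-subunit ribosomal protein. These lower pairs were chosen after their values were seen. Whether paired genes ran apart or towards each other was not read.

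The DNA at these promoters was rich in CpG. Sequence was read in a RefSeq window of 300 bp, from 250 bp upstream of the start to 50 bp downstream. A window was matched only where the region overlapped the window of its nearest gene, so regions farther from that start were left out. This gave 464 of the 835 promoters bound by NFIB alone (55.6%), 470 of the 1006 shared ones (46.7%) and 49 of the 150 of all 6 libraries (32.7%). The values describe whole windows of matched promoters, not only the bases under the peak. They are set beside those of 20138 protein-coding promoters. The median observed over expected CpG ratio was 0.821 at promoters bound by NFIB alone (quartiles 0.672 and 0.952), 0.711 at shared promoters, 0.421 at promoters of all 6 and 0.588 over all promoters. A ratio of 0.6 or more, a usual mark of a CpG island, was held by 380 of the 464 (81.9%, interval 78.1 to 85.1%), against 62.6% of shared promoters (58.1 to 66.8%), 34.7% of those of all 6 (22.9 to 48.7%) and 49.1% of all promoters (48.4 to 49.8%). The median GC content was 61.3% at promoters bound by NFIB alone, against 57.7% at shared promoters, 55.7% at those of all 6 and 57% over all promoters.

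Motifs were counted as exact letters on both strands. The GC box GGGCGG was found in 320 of the 464 windows bound by NFIB alone (69.0%, interval 64.6 to 73.0%), against 52.1% of shared promoters (47.6 to 56.6%), 32.7% of those of all 6 (21.2 to 46.6%) and 47.8% of all promoters. The ETS element CCGGAAG, read by ETS family activators, stood in 20.7% (17.3 to 24.6%) of the promoters bound by NFIB alone, against 15.5% of shared promoters, 12.2% of those of all 6 and 11.9% of all promoters. The E-box CAGCTG, a site of proneural basic helix-loop-helix factors, stood in 14.4% (11.5 to 17.9%), against 20.4% of shared promoters, 26.5% of those of all 6 and 15.7% of all promoters. The NF-Y element CCAAT was found in 36.9% of the promoters bound by NFIB alone and 37.8% of all promoters. It can share bases with an NFI arm, as GCCAAT holds both.

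The NFI letters were present without the full palindrome. The single arm TTGGC was found in 60.6% of the windows bound by NFIB alone (interval 56.0 to 64.9%), against 65.5% of shared promoters, 69.4% of promoters of all 6 libraries and 48.2% of all promoters. The longer TTGGCA stood in 83 of the 464 (17.9%, 14.7 to 21.6%), against 24.3% of shared promoters (20.6 to 28.3%), 32.7% of those of all 6 (21.2 to 46.6%) and 13.1% of all promoters (12.7 to 13.6%). The palindrome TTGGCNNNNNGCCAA was found in 1 of the 464 windows bound by NFIB alone and 0 of 470 shared ones. It was found in 3 of 49 at promoters of all 6 libraries and 6 of 20138 promoters in all. As a control, the arms with 8 bases between them were found in 0 of 464, 0 of 470, 0 of 49 and 7 of 20138. The single palindrome bound by NFIB alone was at Galt, an enzyme of galactose breakdown, with a fold of 2.95 in CD1 and 2.62 in Mixed. The 3 at promoters of all 6 libraries were those of Gstm7, Oasl1 and Hrh1. Within 50 bp of the CD1 summit, where the promoter window covered it, 38.3% of the 264 promoters bound by NFIB alone held a GC box and 9.09% TTGGCA, against 24.3% and 12.9% of 263 shared promoters and 26.1% and 34.8% of 23 promoters of all 6. These letters describe the windows and do not show which protein sat there.

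**Figure D3:**
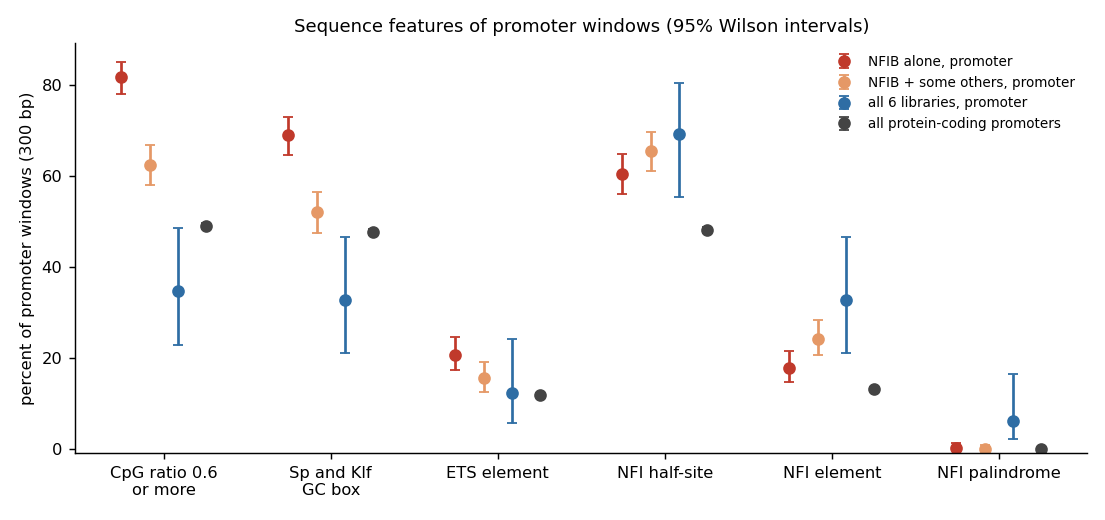
Share of promoter windows (percent, with 95% Wilson intervals) that hold each motif or a CpG ratio of 0.6 or more, by promoter class and for all protein-coding promoters. The site labelled NFI element is TTGGCA, and the single arm TTGGC stands to its left. Promoters bound by NFIB alone are highest for the CpG ratio (81.9%) and the GC box (69.0%), and below the promoters of all 6 libraries for TTGGCA (17.9% and 32.7%).

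These properties varied with fold among the promoters bound by NFIB alone. They were divided into 4 groups of 208 or 209 by the mean percentile of fold over the NFIB lists. From lowest to highest, the groups had a median local background in CD1 of 18.1, 14.8, 11.97 and 6.45 fragments, and median fragments at the summit of 45, 44, 41 and 32. The local background is part of the fold, so these are descriptions. The median distance of the CD1 summit from the TSS was 99, 93, 111 and 226 bp. A CpG ratio of 0.6 or more was held by 90.4%, 88.7%, 80.0% and 57.3% of the windows, GC boxes by 69.9%, 75.2%, 70.8% and 53.3%, and TTGGCA by 14.0%, 18.8%, 16.7% and 25.3%. The highest group was thus the one farthest from the start site, poorest in CpG islands and lowest in background, on 75 windows with sequence against 136 in the lowest.

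**Figure D4:**
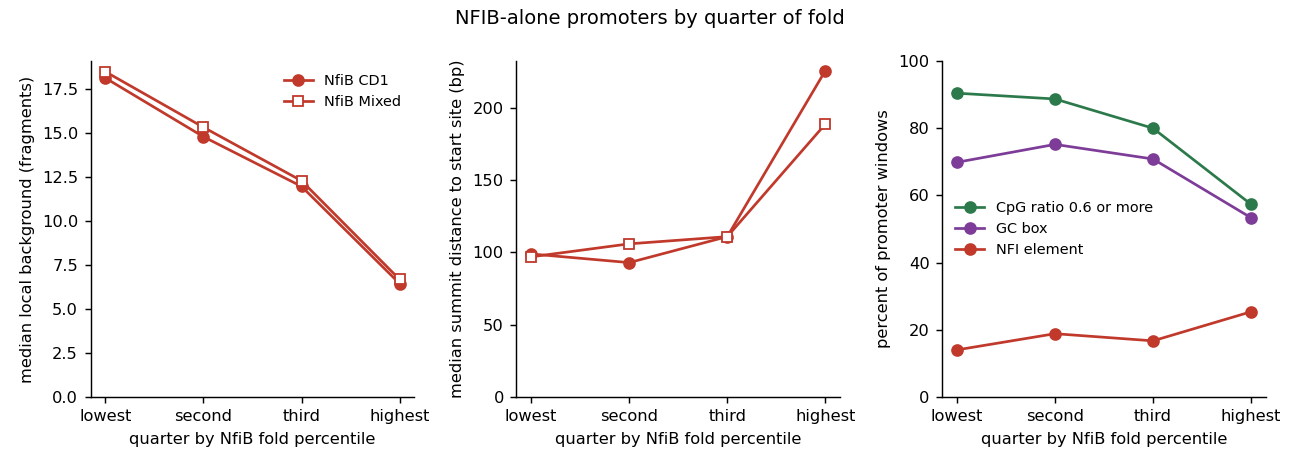
Median local background (fragments), median summit distance to the TSS (bp) and share of promoter windows (percent) in the 4 groups of promoters bound by NFIB alone, ordered along the horizontal axis by mean fold percentile with the lowest at the left. Local background drops by group to 6.45 fragments in the highest, and the share with a CpG ratio of 0.6 or more to 57.3%.

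The promoters of highest fold belonged to genes of varied tissues. Sh3kbp1 on chromosome X (159697679 to 159698162, mm10), an adaptor in receptor endocytosis, came first with a fold of 10.3 in CD1 and 7.10 in Mixed, from 24 and 16 fragments over a background of 1.43 and 1.39. Its summits lay 593 and 575 bp downstream of the TSS, in an intron. Nfasc on chromosome 1 (132637357 to 132637663), which encodes neurofascin, an adhesion protein of the axon initial segment, had folds of 7.98 in CD1 and 6.31 in Mixed with summits 410 and 441 bp upstream of the TSS, within an intron by annotation. Myh3, an embryonic muscle myosin, had folds of 7.26 and 7.11, Olfr211, an olfactory receptor, 6.87 and 6.41, and Adam2, a sperm surface protein, 7.40 and 5.51. Genes of neurons and glia among the 25 highest included C1ql3, a secreted synaptic protein, with 5.80 in CD1 and 5.93 in Mixed, Sh3gl2, which encodes an endophilin of synaptic vesicle recycling, with 5.24 and 5.47, and Slc1a3, the glial glutamate transporter, with 5.94 and 4.62.

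Other members of the 25 differed in how well the NFIB libraries matched. Arhgap32, a GTPase-activating protein, had a fold of 8.63 in CD1 and 4.37 in Mixed. Rph3al, an effector of regulated exocytosis, had 5.66 in CD1 and 5.70 in Mixed, with 56 fragments in each. Nucks1, a nuclear kinase substrate, had 6.19 and 5.21 from 56 and 54 fragments, and Urm1, a ubiquitin-related modifier of tRNA, 6.09 and 4.41 from 56 and 41. Enpep, a cell-surface aminopeptidase on chromosome 3 (129332738 to 129333225), had 5.24 and 6.53 from 18 and 23 fragments, with summits 157 and 146 bp upstream of the TSS. The remaining 12 had folds between 4.09 and 7.34. They were Aox1, an aldehyde oxidase, Colq, the collagen tail of acetylcholinesterase, Hmgcs1, an enzyme of cholesterol synthesis, Srpk2, a kinase of splicing factors, Lifr, a cytokine receptor, Tead1, a transcription factor of the Hippo pathway, Mrps33, a mitochondrial ribosomal protein, Stc1, a secreted hormone, Myoc, which encodes myocilin, and Lurap1l, Fam107b and Susd2. Stc1 and Tead1 had an NFIA Mixed peak at 100 bp and an NFIX Mixed peak at 865 bp from the region. The mean fold percentile over the 25 ran between 40.8 at Myoc and 77.0 at Sh3kbp1.

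Gene groups were read against the share of all genes. Of 21842 protein-coding genes, 806 were nearest to a promoter bound by NFIB alone, a background of 3.69%, and 1813 were nearest to any promoter region with both NFIB peaks, a background of 8.3%. The groups were chosen with results of these data known, and no set test was made. Cytosolic ribosomal proteins had 13 of 83 genes with a promoter bound by NFIB alone (15.7%, interval 9.39 to 24.98%). They included Rps29, with a fold of 4.28 in CD1 and 4.47 in Mixed from only 15 and 18 fragments, and Rps27l with 2.80 in each library from 54 and 53 fragments. DEAD and DEAH box helicases, which unwind RNA, had 8 of 53 (15.1%, 7.85 to 27.1%), led by Ddx18 with 4.60 and 4.29. The spliceosomal Snrp, Sf3 and Srsf proteins had 4 of 32 (12.5%, 4.97 to 28.1%), Sf3a3, Srsf7, Sf3b1 and Srsf1. Among all genes with any promoter region holding both NFIB peaks, 806 of 1813 had one bound by NFIB alone. Such a region was found at 13 of 18 ribosomal, 8 of 10 helicase and 4 of 4 spliceosomal genes. It was found at 6 of 14 chromatin and 6 of 18 granule lineage genes of the lists given later. Of other groups, 3 of 4 proteasome and 4 of 8 initiation factor genes had one, but 3 of 9 mitochondrial ribosomal and 1 of 5 Mediator genes.

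Among the other groups of basic cell functions the shares ran down to the background of 3.69% and below it. Translation initiation factors had 4 of 55 (7.27%, 2.86 to 17.3%), among them Eif2b2, a subunit of the exchange factor of initiation, with 3.00 in CD1 and 2.79 in Mixed. Ubiquitin-conjugating enzymes had 4 of 37 (10.8%, 4.29 to 24.7%) and proteasome subunits 3 of 50. The mitochondrial ribosomal proteins had 3 of 78 (3.85%), the ubiquitin-specific proteases 2 of 56 (3.57%), the Rab GTPases 2 of 59 (3.39%) and the zinc finger proteins named Zfp 12 of 394 (3.05%). The aminoacyl-tRNA synthetases had 2 of 34, and the RNA polymerase, Mediator and NADH dehydrogenase subunits 1 each, of 28, 30 and 46. No kinesin of 39 and no tubulin of 19 was a nearest gene, and of 1133 olfactory receptors 1 was, Olfr211 (0.0883%).

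Regulators of chromatin and of the granule lineage stood above the background of 3.69% for promoters bound by NFIB alone and above that of 8.3% for any NFIB promoter. Histone deacetylases and lysine methyltransferases or demethylases had 6 of 52 genes with a promoter bound by NFIB alone (11.5%, interval 5.40 to 22.97%) and 26.9% with any NFIB promoter. In the order of fold they were led by Kdm3b, a lysine demethylase, with folds of 3.56 in CD1 and 3.16 in Mixed, and Setd1a, an H3K4 methyltransferase, with 2.52 and 3.69, followed by Kmt2e and Kmt5b. Ezh2, the catalytic subunit of the Polycomb methyltransferase, had 2.89 and 2.32, and Kdm1a, a demethylase, 2.54 and 2.27. Granule lineage transcription factors had 6 of 28 (21.4%, 10.2 to 39.5%) and 18 of 28 with any NFIB promoter (64.3%). These 6 were Zic4, with 3.93 in CD1 and 4.78 in Mixed, Nfia, with 3.81 and 4.72, Lhx1, with 2 regions, Mef2a, with 3.30 and 3.07, Mef2d, with 3.43 and 2.72, and Pax6, with 3.02 and 3.07. Nfia encodes another NFI factor, and its region, with summits in an intron, lay 1809 bp from the nearest NFIA Mixed peak. Pax6, a regulator of granule cell progenitors, had its nearest NFIA Mixed peak 1221 bp away. Axon guidance and cell adhesion genes had 7 of 83 (8.43%, 4.15 to 16.4%), led by Plxnd1, a semaphorin receptor, with 5.67 in CD1 and 2.69 in Mixed, and Efnb1, an ephrin ligand, with 3.33 and 4.23. Plxna2, Ephb1, Sema4c, Cadm2 and Ephb2 followed.

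**Figure D5:**
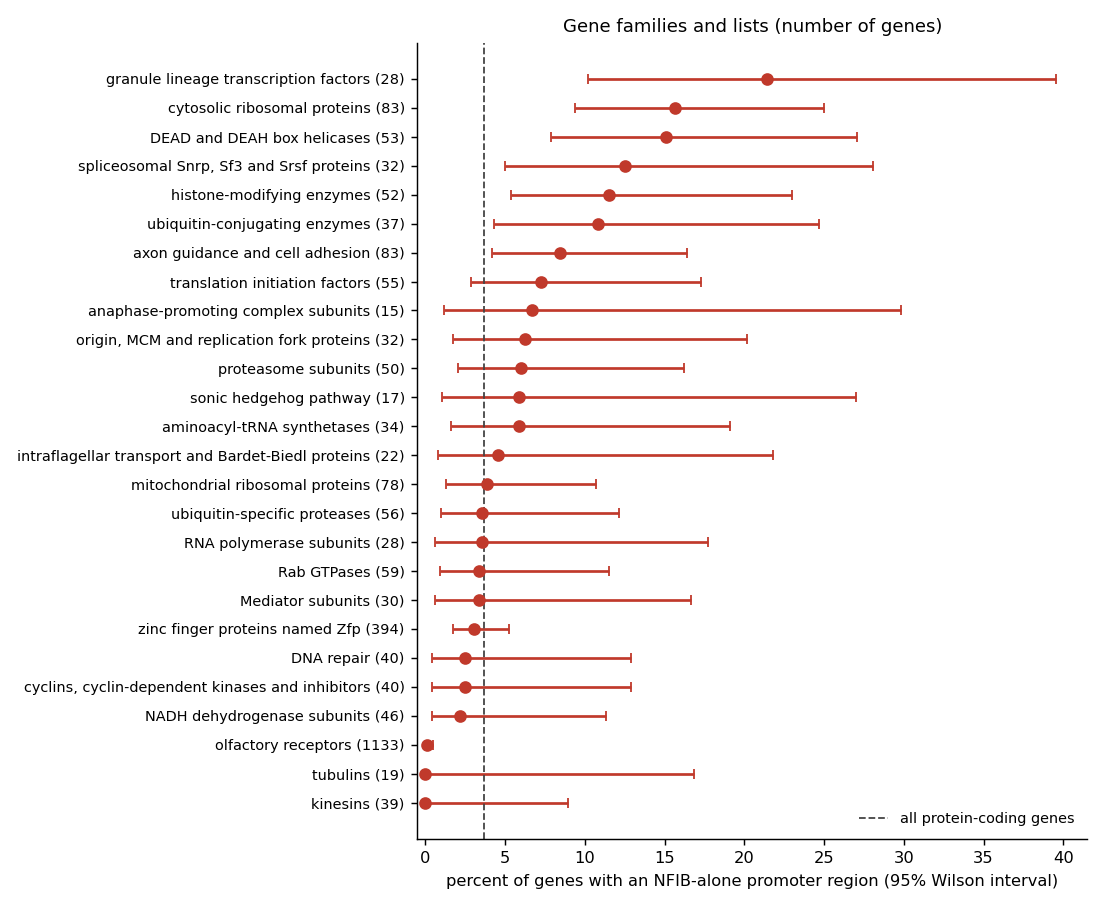
Share of each gene group with a promoter bound by NFIB alone (percent, 95% Wilson intervals) beside the 3.69% of all protein-coding genes. Granule lineage transcription factors (21.4%), cytosolic ribosomal proteins (15.7%) and DEAD and DEAH box helicases (15.1%) stand highest among the groups shown.

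The lists of cell cycle genes and of hedgehog signalling, the pathway that drives division of these progenitors, had 1 or 2 genes each, with intervals that held the background of 3.69%. Of 17 sonic hedgehog pathway genes 1 had a promoter bound by NFIB alone (5.88%, interval 1.05 to 26.98%), Mycn, the N-Myc transcription factor. Its start site on chromosome 12 lay in a region (12941466 to 12942153) with folds of 4.75 in CD1 and 3.72 in Mixed from 48 and 39 fragments, with summits 39 and 41 bp downstream of the TSS, in a UTR, and a second region lay 583 bp upstream by its CD1 summit, with 4.0 in CD1 and 3.07 in Mixed. Of 40 cyclins, cyclin-dependent kinases and inhibitors 1 had one (interval 0.443 to 12.9%), Cdkn1b, an inhibitor of cyclin-dependent kinases tied to cell cycle exit. It had folds of 3.73 in CD1 and 2.92 in Mixed from 65 and 56 fragments over a background of 16.7 and 18.5, and its nearest NFIA or NFIX peak was 89804 bp away. Replication proteins had 2 of 32 (6.25%, 1.73 to 20.1%), Prim2, a primase subunit, with 4.02 and 2.91, and Cdt1, a licensing factor, with 3.74 and 2.71. The DNA repair genes, the anaphase-promoting complex and the intraflagellar transport and Bardet-Biedl proteins had 1 each, Xrcc4 of 40, Anapc4 of 15 and Ift46 of 22. Of 16 genes looked up as markers of cerebellar cell types, Slc1a3, Mycn and Pax6 had such a promoter (18.75%, 6.59 to 43.0%), and all of them are named above. This share pools several cell types. The progenitor genes Atoh1, Barhl1, Zic1, Zic2, Gli1, Gli2, Ccnd1 and Ccnd2 on the list had none. Neither did the glial genes Gfap, Aqp4 and Olig2 or the Purkinje cell genes Pcp2 and Calb1.

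Most of these promoters had no called NFIA or NFIX peak within 10 kb. A peak of NFIA or NFIX that did not overlap lay within 1 kb of 77 of the 835 promoters bound by NFIB alone (9.22%, interval 7.44 to 11.4%), and within 10 kb of 235 (28.1%, 25.2 to 31.3%). Regions of NFIB alone away from promoters had one within 1 kb at 11.9% (10.9 to 13.0%) and within 10 kb at 46.5% (44.9 to 48.1%). Within 100 kb the shares were 86.1% and 94.0%. The nearest gene also had a region of all 6 libraries assigned to it at 194 of the 835 promoters bound by NFIB alone (23.2%). The share was 25.6% of the shared promoters and 45.7% of the regions of NFIB alone away from promoters. These shares count a gene once for each of its regions. With each gene counted once, 11.5% of all protein-coding genes had a region of all 6 libraries.

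At the limit of 1 kb the promoters just inside and the regions just outside had overlapping folds, on a few regions each. Arhgap29, Msra and Sgpp2, with midpoints 988, 990 and 997 bp from the TSS, were kept, and had folds of 4.16, 3.36 and 5.12 in CD1 and 4.09, 4.80 and 3.64 in Mixed. Tbr1, Zdhhc17 and Sema6a, at 1008, 1009 and 1016 bp, were left out, with 4.26, 4.15 and 4.90 in CD1 and 2.93, 4.72 and 3.84 in Mixed.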

How the data were processed

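Single-end ChIP-seq reads were processed by the authors with Bowtie2 2.2.6, SAMtools 1.4.1 and MACS2 2.1.0 on mm10, per the submitters' processing notes. Whether input served as control, the read filters and the peak threshold were not given in the sources used here. Each deposited peak list, called per library, gives fold enrichment (a ratio), −log10 p and −log10 q as deposited by the authors, and a deposited display score that was not used. Raw depth is unknown, and precision rests on the fragments at each summit.

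Peaks were merged across the lists, and midpoints were compared with GENCODE M21 start sites of protein-coding transcripts (GRCm38, the build of the files). Fragments and local background were recovered from fold and p with a pseudocount of 1 and a Poisson tail, within 0.002 of the deposited −log10 p for all 835 members in both libraries. Merging, classification and recovery were tested on simulated data. Sequences are RefSeq windows, with chromosome 18 left out, and windows of 50 bp to either side of a summit were read from them. Python 3.11.15, numpy 2.4.6, scipy 1.17.1, pandas 2.3.3 and matplotlib 3.10.9 were used.

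Regions are not replicates, so no test was made. Shares have Wilson intervals. Members and gene lists were chosen with earlier results of these data known. The text names the 25 members with the highest mean fold percentile, list members in that order and the first pairs with start sites on both strands. It also names regions nearest the 1 kb limit and windows with the NFI palindrome, besides genes said to be chosen after their values were seen. Of a list's members the text gives values for a part, and Rps27l, Eif2b2, Ezh2, Kdm1a and the nearest peaks of single genes were picked from theirs after the values were seen. A list member that the order would name is not reported here.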

Additional observations from a re-analysis of the deposited data

How the results depend on the processing

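The 835 promoters bound by NFIB alone, 18.6% of all regions of NFIB alone, depended on list length and threshold. Cutting every list to the shortest length by fold and forming regions again gave 5 (3.18%), which were not among the 835. Cutting by −log10 q, an alternative chosen after seeing the data, gave 19 (11.8%). A −log10 q of 5 or more gave 479 when asked of the NFIB lists alone, and asked of all lists it made the share 15.2%. Leaving out 1 library at a time gave counts between 835 and 1873 and shares between 15.3 and 18.5%. The highest counts came without an NFIB library, 1432 without CD1 and 1873 without Mixed. Windows of 250 and 500 bp and of 2 and 5 kb gave shares of 13.4, 15.7, 21.7 and 27.3%, start sites of all biotypes 24.0% and 1 start site a gene 15.6%, with a summit distance of 166.5 bp against 114. Further alternatives, chosen after seeing the data, took members with a −log10 q of 5 or more (median fold 3.20, 44.75 fragments, width 292.5 bp) and those within 250 bp of the TSS (43 fragments over a background of 14.7). Start sites on both strands were found at 6.83% within 500 bp, and with all biotypes at 25.3% within 1 kb and 17.7% within 500 bp. A peak of another library lay within 500 bp and 2, 10 and 100 kb at 4.55, 12.2, 28.1 and 86.1%. On the given strand TTGGCA stood at 8.84% and the GC box at 48.7%. Around the CD1 and Mixed summits TTGGCA stood at 9.09 and 7.75%, the GC box at 38.3 and 37.3% and the palindrome at 0%, which was also its share in windows of regions within 250 bp of the TSS. Counting every gene within 1 kb gave 5 mitochondrial ribosomal, 3 NADH dehydrogenase and 1 tubulin gene. Apart from the list lengths, thresholds and windows named here, the causes were not tested. No paired analysis was possible because no result comes from a test over samples. With fragments at the summit of about 41, small differences of fold between libraries lie within counting error.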
